A study of Mus musculus with 6 samples.

Results

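Lipid droplets are the stores in which hepatocytes keep triglyceride, and 10 mouse genes that coat these droplets, join them or break their triglyceride down were followed here in livers with and without Gα12. The genes are Plin2, Plin3, Plin4, Plin5, Cideb, Cidec, Pnpla2, G0s2, Abhd5 and Hsd17b13. The rule that picks their probes uses accessions and no measured value. All 10 had probes on the array, 15 probes in all, found by the RefSeq accession that the array files give for each probe. Each of the 10 was among the 12297 named genes that remained after probes near background had been left out, and 14 of the 15 probes passed that filter.

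Livers came from 3 WT male mice and 3 male Gα12 KO mice, called the knockout below. Gα12, the product of Gna12, is a G protein α subunit that relays signals from receptors at the cell surface. All 6 mice were 8 weeks old, were fasted overnight after a chow diet, and were of a mixed C57BL/6 (95%) and 129/Sv background. The labels do not say how Gna12 was disrupted or in which cells, nor whether the WT mice were littermates. Each liver was hybridised to 1 array, and n = 3 per group limits the precision of every value below.

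The coat of a droplet is made of perilipins. Plin2 is bound to droplets throughout the liver, Plin3 moves between cytosol and droplets, Plin4 is most abundant in adipose tissue, and Plin5 is enriched in cells that oxidise fatty acids and ties droplets to mitochondria. Cideb and Cidec act where droplets touch and promote the transfer of lipid between them, and Cideb also serves the loading of lipid onto lipoproteins. Pnpla2 encodes adipose triglyceride lipase, which starts the breakdown of stored triglyceride, Abhd5 encodes its coactivator, G0s2 encodes its inhibitor, and Hsd17b13 encodes a droplet-bound dehydrogenase that is abundant in liver. In fasting, fatty acids from adipose tissue reach the liver, and several of these genes are known targets of the fatty acid receptor PPARα.

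Each level below is a log2 signal minus the log2 of the array's 75th percentile, and differences are knockout minus WT. A level can be compared between livers for the same probe, but not between probes. Of the 55681 probes, 20953 to 28752 per array were well above background. WT replicates 1 and 2 stood apart from the other 4 livers. Across probes they correlated with each other at r = 0.973 and with the knockout livers at 0.869 to 0.930, while WT replicate 3 reached 0.966 to 0.982 with the knockout livers. The 7 probes of Gapdh, a glycolytic enzyme gene, spread over 9.58 and 7.79 log2 units on WT replicates 1 and 2 and over 4.01 to 4.87 on the other arrays. On the slide, WT and knockout arrays lay in separate rows, so row and genotype cannot be told apart. Spots marked as non-uniform followed the same division, with 2, 4 and 6 on the WT arrays and 135, 152 and 90 on the knockout arrays. The lowest level on an array was -6.22 to -5.41 in WT and -5.14 to -4.82 in the knockout. Hepatocyte markers were well above background on every array for 10 of 10 genes, with a summed signal of 4710 to 7900 times the array's 75th percentile in WT and 5680 to 7380 in the knockout. Gna12 had 1 probe, at -3.48, -4.55 and -0.89 in WT replicates 1 to 3 and at -4.91, -4.62 and -3.47 in the knockout, and only WT replicate 3 was well above background for it. Because of this division among the WT livers, the difference of each droplet gene's brightest probe is given over all 6 livers and also against WT replicate 3 alone. The second of these has 1 WT liver, so it is a value with its spread known from the knockout livers only.

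None of the 10 genes passed limma's test after Benjamini-Hochberg adjustment at 0.05, and neither did any of the 12297 genes (0%). With the unadjusted p of limma below 0.05, 16.6% of the 12297 genes lay lower in the knockout and 3.98% lay higher, and the median difference was -0.49. With the 75th percentile taken over probes detected on all arrays these shares were 8.35% and 5.69%, and the median was -0.02. Among the droplet genes G0s2 was lower by that measure, 0 were higher, and 5 of 10 differences lay below 0, as did 72.3% of those of all genes. The median of the 10 differences was -0.13, which is 0.37 above the median of all genes before rounding. All knockout livers lay outside the WT range for 1 of the 10, again G0s2, which was lower. Of all genes, 21.1% were lower without overlap and 4.42% higher. With 1 of 10 genes lower and 0 of 10 higher, these shares lay near those of the array.

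**Figure D1:**
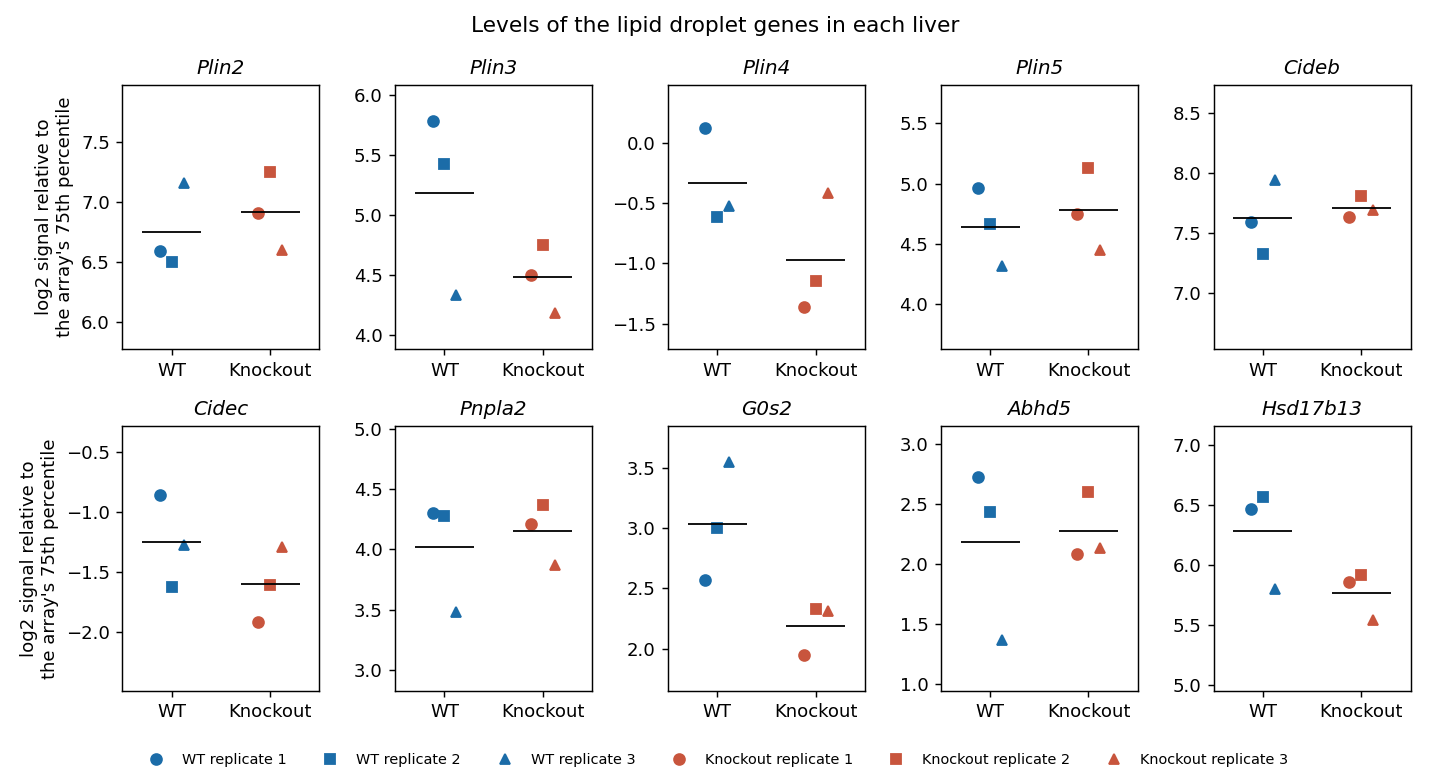
Each panel plots 1 gene in the 6 livers as the log2 signal of its brightest probe relative to the array's 75th percentile, with WT livers in blue, knockout livers in red, a symbol for each replicate number and a black line at each group mean. Every panel spans 2.2 log2 units. The knockout livers lie below all WT livers for G0s2, and the groups overlap for the other 9 genes.

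The starts of some of the genes that the comparisons below set against each other are shown first, because the bases before a start are where transcription is set up. These are the inhibitor and the lipase, G0s2 and Pnpla2, and the coat genes Plin2 and Plin5. Each line gives the 250 bases before the gene's start, 5′ to 3′ on the gene's own strand, from RefSeq on GRCm38.p6. Capitals mark AGGTCA, the core site bound by nuclear receptors such as PPARα with its partner RXR, and CCAAT, both searched on either strand. Plin5 had a further window, not shown, that held neither.
G0s2, chr1:193273189-193273438, minus strand: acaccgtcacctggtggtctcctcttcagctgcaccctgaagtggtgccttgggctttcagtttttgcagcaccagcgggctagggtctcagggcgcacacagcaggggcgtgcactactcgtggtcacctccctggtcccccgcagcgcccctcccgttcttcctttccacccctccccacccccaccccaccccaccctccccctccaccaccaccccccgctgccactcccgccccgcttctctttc
Pnpla2, chr7:141454938-141455187, plus strand: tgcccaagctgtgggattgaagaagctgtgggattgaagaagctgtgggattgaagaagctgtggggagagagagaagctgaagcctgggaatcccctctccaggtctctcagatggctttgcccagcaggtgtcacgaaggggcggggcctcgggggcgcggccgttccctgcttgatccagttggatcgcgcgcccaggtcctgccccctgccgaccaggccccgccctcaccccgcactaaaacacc
Plin2, chr4:86670060-86670309, minus strand: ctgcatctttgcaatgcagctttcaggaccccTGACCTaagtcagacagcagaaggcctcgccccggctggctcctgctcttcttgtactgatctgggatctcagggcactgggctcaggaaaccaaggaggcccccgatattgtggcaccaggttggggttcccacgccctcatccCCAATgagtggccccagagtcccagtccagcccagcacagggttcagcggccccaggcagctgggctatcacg
Plin5, chr17:56117549-56117798, minus strand: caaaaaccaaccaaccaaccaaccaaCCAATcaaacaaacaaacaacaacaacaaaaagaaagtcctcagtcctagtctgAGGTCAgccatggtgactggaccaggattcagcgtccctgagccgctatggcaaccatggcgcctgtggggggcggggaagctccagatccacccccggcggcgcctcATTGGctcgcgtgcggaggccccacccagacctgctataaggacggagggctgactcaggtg

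All 10 genes had such a window, and there were 12 windows because Plin5 and Cidec had 2 each. AGGTCA stood in 4 of the 12, those of Plin2, Abhd5, Hsd17b13 and 1 of the Plin5 windows, and in 14.0% of all 32851 windows of the table. CCAAT stood in 4 of the 12 (Plin2, Plin3, Plin4 and a Plin5 window) and in 33.8% of all windows. The windows of G0s2 and Pnpla2 held neither. A direct repeat of AGGNCA with 1 base between its copies, the form that PPARα with RXR binds, was in 0 of the 12 and in 0.338% of all windows. The E-box CACGTG was in 0 of the 12 and in 6.02%. TATAAA was in 1, that of Cideb, and in 12.4% of all windows. A match describes letters in the window and not a bound site, and PPAR sites can lie outside it.

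Among the perilipins, Plin2 and Plin5 had nearly equal group means, and Plin3 and Plin4 had lower means in the knockout. Plin2 stood at 6.59, 6.50 and 7.16 in WT replicates 1 to 3 and at 6.91, 7.25 and 6.60 in the knockout. The highest liver was knockout replicate 2 and the lowest WT replicate 2, and the groups overlapped. The group means were 6.75 ± 0.36 (SD, n = 3) and 6.92 ± 0.32, and the difference was 0.17 (SE 0.349, 95% interval -0.64 to 0.98, limma adjusted p = 0.737). Against WT replicate 3 alone the direction turned, since that liver lay 0.23 above the knockout mean. Plin5 was at 4.96, 4.66 and 4.31 in WT and at 4.75, 5.13 and 4.45 in the knockout, again with overlapping groups. Its difference of 0.13 had a 95% interval of -0.67 to 0.94 (limma adjusted p = 0.800), and here WT replicate 3 was the lowest liver of all, 0.46 below the knockout mean. These intervals leave room for a change of nearly 1 log2 unit upward in either gene.

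Plin3, the exchangeable perilipin, divided the WT livers instead of the genotypes. WT replicates 1 and 2 were at 5.78 and 5.42, WT replicate 3 was at 4.33, and the knockout livers were at 4.50, 4.75 and 4.18. WT replicate 3 thus fell among the knockout livers, while WT replicates 1 and 2 were the highest of all. The difference was -0.70 (SE 0.442, limma adjusted p = 0.311). It was -1.12 without WT replicate 3 (adjusted p = 0.0154) and 0.15 with WT replicates 1 and 2 left out. Without WT replicate 3, 62.2% of all genes passed the adjusted test, so that this call is one that most of the array shared.

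Plin4, the perilipin best known from adipose tissue, was at 0.13, -0.61 and -0.52 in WT and at -1.36, -1.15 and -0.41 in the knockout. Knockout replicate 3 lay above WT replicates 2 and 3, so the groups overlapped, and the other knockout livers were the lowest of the 6. The difference was -0.64 (SE 0.392, limma adjusted p = 0.302), and it kept its sign against WT replicate 3, which lay 0.45 above the knockout mean. Markers of adipocytes were also read in each liver. Of 9 such genes 5 passed the filter, and 1 was lower at an unadjusted p below 0.05. Their summed signal was 8.22, 2.86 and 2.01 times the array's 75th percentile in WT replicates 1 to 3 and 1.01, 0.923 and 3.92 in the knockout. WT replicate 1 and knockout replicate 3 had the highest sum and the highest Plin4 value of their groups, but among the other livers of each group the order of Plin4 was the reverse of that of the sum. Of these markers Adrb3 alone was at 2.42 in WT replicate 1, -0.13 and -2.22 in the other WT livers and -3.63 to -2.13 in the knockout. Lep and Cidea were not well above background on any array, and Adipoq was on 2 WT arrays and 1 knockout array. The part of adipocyte RNA in the Plin4 values was not tested. In tissue RNA, fewer cells of a type and less RNA per cell cannot be told apart.

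The droplet fusion genes showed no separation by their brightest probes. Cideb was at 7.59, 7.32 and 7.94 in WT and at 7.63, 7.81 and 7.69 in the knockout, with all knockout livers inside the WT range. The difference was 0.09 (SE 0.316, 95% interval -0.64 to 0.83, limma adjusted p = 0.847), and it was -0.23 against WT replicate 3 alone. Cidec, whose product is also abundant in fat cells, was at -0.86, -1.62 and -1.27 in WT and at -1.91, -1.61 and -1.29 in the knockout. Its difference was -0.35 (SE 0.351, limma adjusted p = 0.495), and it turned to 0.13 with the 75th percentile over detected probes. Against WT replicate 3 alone it was -0.33. As for Plin4, the highest Cidec value of each group was in the liver with the highest adipocyte marker sum, and the order of the remaining livers was the reverse of that of the sum. The part of adipocyte RNA in the Cidec values was not tested. A further Cidec probe was well above background on 1 WT array and on 0 knockout arrays and is given no fold.

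Lipolysis starts with the lipase encoded by Pnpla2. For this gene, WT livers were at 4.30, 4.28 and 3.48 and knockout livers at 4.21, 4.37 and 3.87. WT replicate 3 was the lowest liver of all, and WT replicates 1 and 2 lay inside the knockout range. The difference was 0.13 (SE 0.362, 95% interval -0.71 to 0.97, limma adjusted p = 0.809), and against WT replicate 3 alone it was 0.67. With the 75th percentile over detected probes the difference of Pnpla2 was 0.61 (limma adjusted p = 0.309), every knockout liver lay above every WT liver, and the same held for Plin5 and Abhd5. Of all genes, 8.2% were higher and 15% lower without overlap under that scaling, and 3 of the 10 droplet genes were higher and 0 lower.

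G0s2, the lipase inhibitor, was the only gene of the 10 whose groups did not overlap. WT livers were at 2.57, 3.00 and 3.55 and knockout livers at 1.95, 2.33 and 2.31, so that all 3 knockout livers were below all 3 WT livers. The gap between the lowest WT and the highest knockout liver was small beside the range of the WT group. Group means were 3.04 ± 0.49 (SD, n = 3) and 2.19 ± 0.21, which differ by -0.84 (SE 0.363, 95% interval -1.69 to 0.00), with the WT mean 1.79-fold higher. In limma the unadjusted p was 0.04996 and the adjusted p 0.238, so the difference did not pass. It was -0.59 without WT replicate 3 and -1.08 without WT replicate 1. Unlike for Plin3, WT replicate 3 was here the liver farthest from the knockout, 1.35 above its mean, while WT replicates 1 and 2 lay 0.37 and 0.80 above it. With the 75th percentile over detected probes the difference of G0s2 was -0.37, and its groups overlapped. It had the same sign under all 18 alternatives run, from -1.35 to -0.37.

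**Figure D2:**
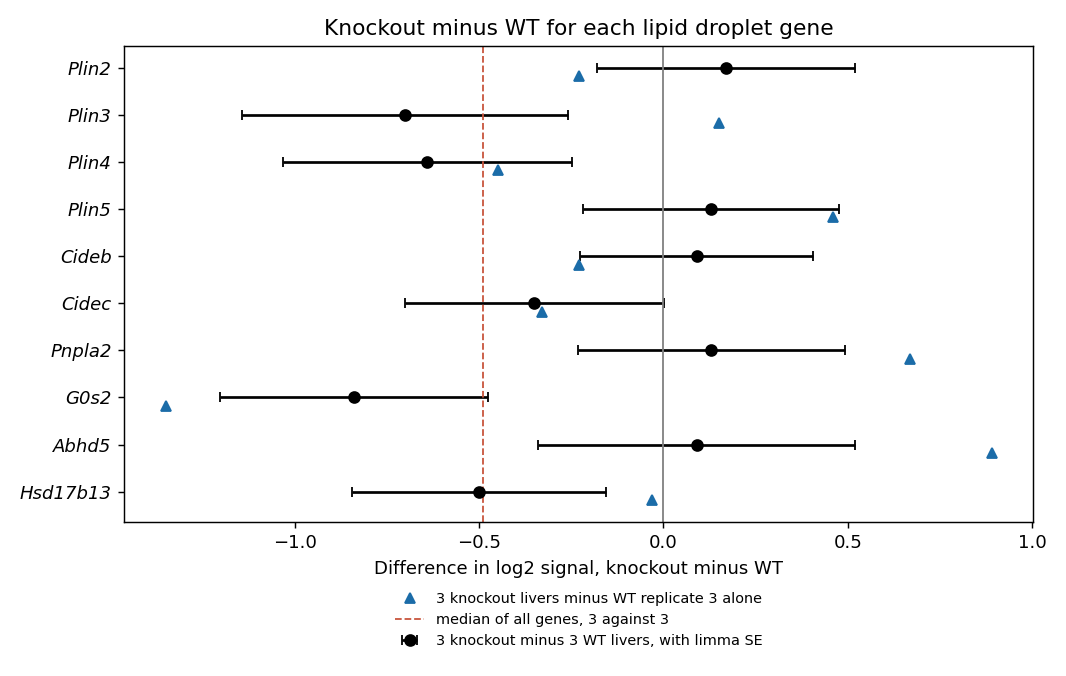
Black points give knockout minus WT in log2 signal for the brightest probe of each gene, over 3 livers per group, with limma's standard error as bars. Blue triangles give the same against WT replicate 3 alone, and the dashed line is the median of all genes at -0.49. G0s2 lies lowest by either measure, and Abhd5 and Pnpla2 lie farthest right against WT replicate 3.

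Abhd5, the lipase coactivator, had 3 probes that disagreed in size. The brightest was at 2.72, 2.43 and 1.37 in WT and at 2.08, 2.60 and 2.13 in the knockout, and it differed by 0.09 (SE 0.429, limma adjusted p = 0.892). The second was at -2.31, -0.51 and 0.46 in WT and at 1.07, 1.27 and 0.84 in the knockout, and it differed by 1.84 (SE 0.658, limma adjusted p = 0.235). The third was at -3.79, -0.91 and 0.49 in WT and at 1.0, 1.24 and 1.12 in the knockout, and it differed by 2.52 (SE 0.956, limma adjusted p = 0.235). By these further probes every knockout liver was above every WT liver, and WT replicates 1 and 2 were far lower than WT replicate 3. On 1 array the 3 probes spanned 6.51 log2 units in WT replicate 1, 3.34 in WT replicate 2, 0.92 in WT replicate 3 and 1.08 to 1.36 in the knockout livers. WT replicates 1 and 2 were thus the arrays with the widest span, as they were for Gapdh and for the median of 2737 genes with several probes (2.89 and 2.54, against 1.63 to 1.90 on the other 4 arrays). On WT replicate 3, where the probes spanned least, all 3 were below the knockout livers, and the knockout mean was higher by 0.89 for the brightest probe.

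The same spread appeared in Cideb, whose further probe was at 2.17, 3.20 and 5.62 in WT and at 5.34, 5.34 and 5.06 in the knockout. Its difference of 1.59 (SE 0.795, limma adjusted p = 0.251) rested on WT replicates 1 and 2, and it was -0.37 with them left out. The brightest and the further Cideb probe lay 5.42 and 4.12 log2 units apart on WT replicates 1 and 2 and 2.30 to 2.63 apart on the other arrays.

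Hsd17b13, the droplet dehydrogenase, had a pair of probes on different RefSeq transcripts of the gene. The brighter was at 6.47, 6.57 and 5.80 in WT and at 5.86, 5.92 and 5.54 in the knockout. WT replicate 3 lay among the knockout livers, and the difference was -0.50 (SE 0.345, limma adjusted p = 0.336). It was -0.74 without WT replicate 3 (adjusted p = 0.0291), again where most genes passed, and -0.03 with WT replicates 1 and 2 left out. The dimmer probe was at -1.91, -2.59 and -2.39 in WT, where it was well above background on all 3 arrays. In the knockout it was at -3.14, -3.23 and -3.29 and well above background on 0 of 3. This probe passed the filter on dim probes through the WT arrays alone, which favours a lower knockout value. No p is given for it, and its difference is not read as a change. That difference was -0.92, and it was -0.45 with the 75th percentile over detected probes and -0.21 after normexp background correction. By the dimmer probe WT replicate 3 was above all knockout livers, which is the order that the filter favours. By the brighter probe it was not.

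**Figure D3:**
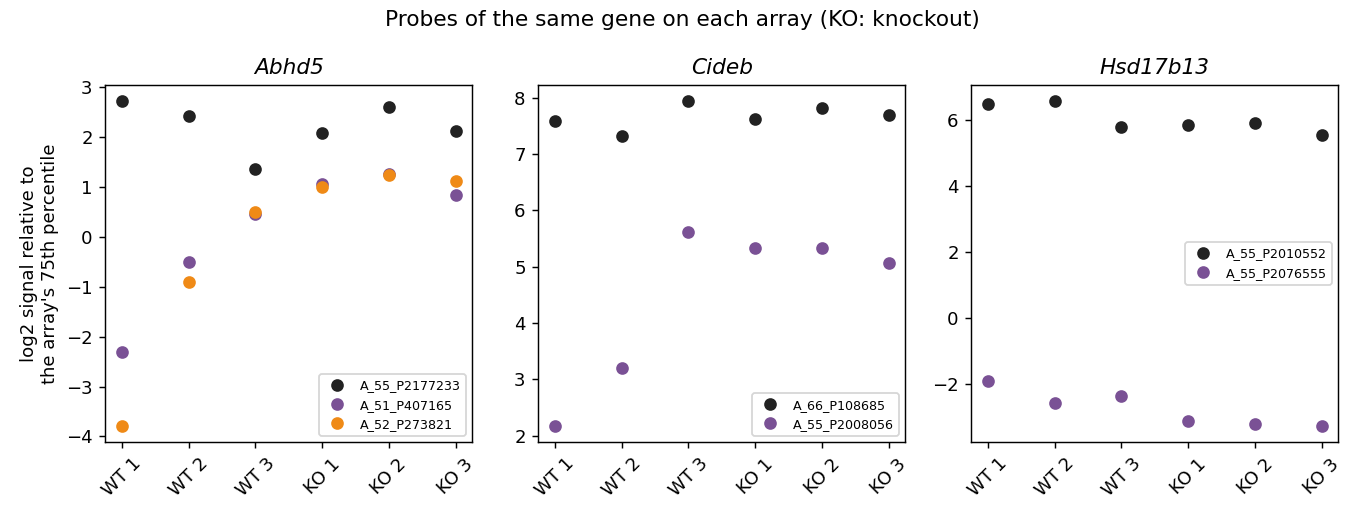
Each panel plots all probes of 1 gene (Abhd5, Cideb and Hsd17b13) on the 6 arrays, as the log2 signal relative to the array's 75th percentile, with a colour for each probe. For Abhd5 and Cideb the probes lie far apart on WT replicates 1 and 2 and closer together on WT replicate 3 and the knockout arrays (KO), whereas the Hsd17b13 probes keep a distance of 8.19 to 9.16.

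Within an array the scaling cancels, so 5 pairs of these genes were also compared as the log2 of one minus the log2 of the other. The size of such a value depends on the probes, and only its change between livers is read. An exact permutation test of 3 against 3 livers (two-sided) cannot go below 0.1. G0s2 minus Pnpla2 was -1.73, -1.28 and 0.07 in WT and -2.26, -2.04 and -1.56 in the knockout, a difference of -0.98 (exact permutation p = 0.2, 0.5 adjusted over the 5 pairs). Inhibitor relative to lipase was lowest in a pair of knockout livers, and knockout replicate 3 lay between WT replicates 1 and 2. The change in this measure was -1.35 without WT replicate 1 and -0.45 without WT replicate 3. Abhd5 minus Pnpla2, by the brightest probes, differed by -0.04 (exact permutation p = 0.9), with a value of 1.35 from the mean of the Abhd5 probes. The size of this value thus depended on which Abhd5 probes were used.

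Plin2 minus Plin3 was 0.81 and 1.08 in WT replicates 1 and 2, 2.83 in WT replicate 3 and 2.41, 2.50 and 2.42 in the knockout. The knockout livers lay close together, and the WT livers lay on both sides of them (difference 0.87, exact permutation p = 0.4). Plin5 minus Plin2 had the same form, with WT livers at -1.64, -1.84 and -2.84 and knockout livers at -2.16, -2.12 and -2.16 (difference -0.04, exact permutation p = 1). Cidec minus Cideb differed by -0.44 (exact permutation p = 0.2). With a lowest possible p of 0.1, none of the 5 pairs could pass at 0.05 whatever its values. The adjusted values were 0.5 to 1.

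**Figure D4:**
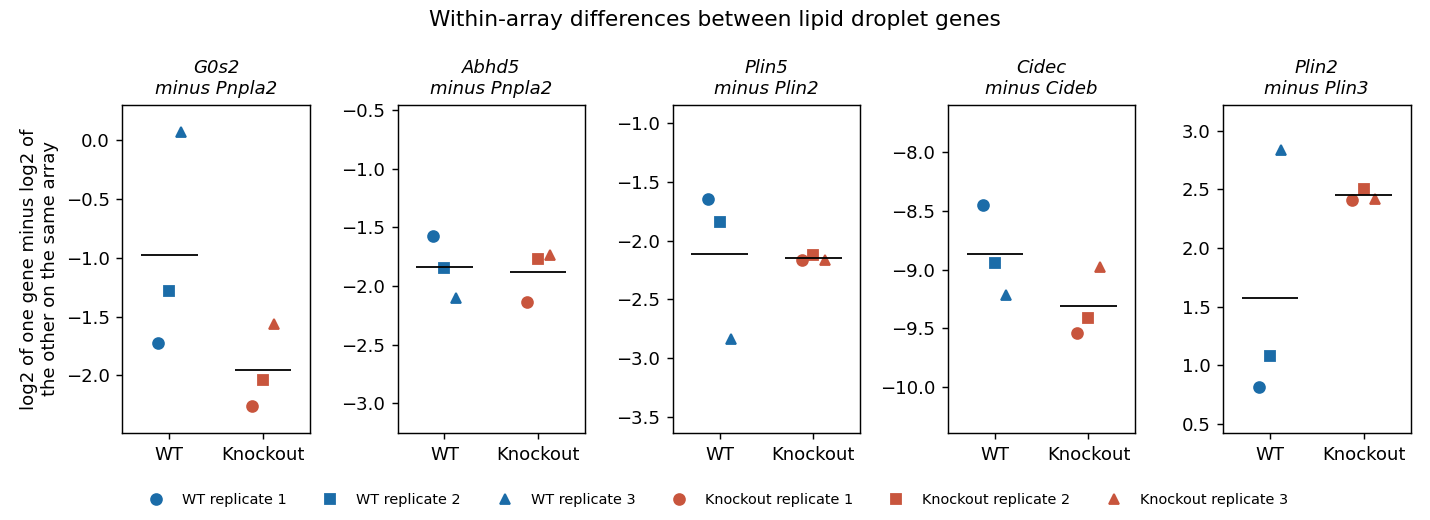
Each panel plots, for 1 pair of genes, the log2 signal of the first minus that of the second on the same array, with WT livers in blue, knockout livers in red and a black line at each group mean. Every panel spans 2.8 log2 units. In Plin2 minus Plin3 the knockout livers form a tight group and the WT livers lie on both sides of it.

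Other genes of droplets and lipolysis were taken from 5 lists. Of 25 further genes of droplet coats, growth and budding, 20 were measured, 1 was lower at an unadjusted p below 0.05 and 0 were higher, with a median difference of 0.06. Acsl3, which encodes an acyl-CoA synthetase of nascent droplets, differed by -2.24 (SE 0.702, limma adjusted p = 0.235), with WT replicates 1 and 2 at 1.64 and 1.59 and WT replicate 3, at -0.94, close to the knockout livers at -1.33, -1.96 and -1.14. Aup1, whose product sits on droplets and in protein degradation, differed by 2.12 (SE 0.915), and Bscl2, which encodes the droplet assembly protein seipin, by 1.92 (SE 0.865). Rab18, a small GTPase of droplets, differed by -0.90 (SE 0.400). WT replicate 3 was at 3.90 for Aup1 and at 1.98 for Bscl2, beside knockout means of 3.99 and 1.86, and Bscl2 turned to -0.12 with WT replicates 1 and 2 left out. Plin1, the main perilipin of fat cells, was well above background on 1 WT array only.

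Among 10 other lipase genes, 8 were measured and all 8 differences were below 0, beside 72.3% of those of all genes, with a median of -0.64 beside -0.49 over all genes. Ces1f, a liver carboxylesterase gene, differed by -1.04 (SE 0.396) and was the 1 gene lower at an unadjusted p below 0.05. Ces1g differed by -0.85 (SE 0.413) and Mgll, which encodes monoglyceride lipase, by -0.79 (SE 0.441). Mgll had 3 kept probes, and with the mean over them it differed by only -0.17. Abhd6, another monoglyceride hydrolase gene, differed by -0.49 (SE 0.290). Its knockout livers (1.19 to 1.39) were all below the WT livers (1.70 to 1.87). With the mean over its 2 kept probes Abhd6 differed by -0.69. By the brightest probes the limma adjusted p of these 4 genes ran from 0.235 to 0.290.

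Of 6 genes of cAMP signalling, the pathway by which glucagon drives lipolysis, Pde4b stood apart. This phosphodiesterase gene was at 1.47, 1.40 and 1.26 in WT and at 0.12, -0.21 and -0.58 in the knockout. All 3 WT livers were alike and more than 1 log2 unit above every knockout liver, and the difference was -1.60 (SE 0.324, limma adjusted p = 0.228). It was the 1 gene of the 6 lower at an unadjusted p below 0.05, and its sign held under all 18 alternatives (-1.78 to -1.13). Pde3b, the phosphodiesterase gene through which insulin restrains lipolysis, differed by -0.73 (SE 0.398), the protein kinase A subunit gene Prkaca by 0.82 (SE 0.389) and Prkar2a by 1.24 (SE 0.759).

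A list called transcription factor genes below held 12 genes of transcription factors and other regulators reported to control droplet genes. By the unadjusted p 3 of them had lower and 1 had higher signals, and the median was -0.43. Pparg, the receptor that drives Plin4 and Cidec in fat cells, was at 2.60, 2.58 and 2.14 in WT and at 1.72, 0.59 and 0.97 in the knockout, so that it differed by -1.35 (SE 0.388, limma adjusted p = 0.235). Its groups did not overlap, and WT replicate 3 kept to the WT side. Sirt1, a deacetylase gene, differed by -1.60 (SE 0.543) and Mlxipl, the carbohydrate response factor gene, by -1.45 (SE 0.546), with WT replicate 3 near or among the knockout livers for both. Srebf1, a lipogenic factor gene, differed by 2.94 (SE 1.0) and ranged from -3.56 to 0.98 between WT livers. Ppara itself differed by 0.11 (SE 0.383).

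Of 14 PPARα targets other than the droplet genes, 4 were lower by the unadjusted p and 0 higher, with a median of -0.55 that was close to that of all genes. Pdk4, whose product limits the oxidation of pyruvate, differed by -1.48 (SE 0.456), the acyl-CoA thioesterase gene Acot1 by -1.36 (SE 0.460), the peroxisomal thiolase gene Acaa1b by -1.14 (SE 0.387) and Fgf21, a hormone gene of fasting, by -1.68 (SE 0.641). Knockout replicate 3, at -4.09, was far below the other knockout livers for Fgf21, whose probe was well above background on 2 of 3 knockout arrays, and without that liver the difference was -0.91. In each of these 4 every knockout liver was below every WT liver, and the limma adjusted p was 0.235. They were named for having the smallest unadjusted p of the list. Over the 14 targets the differences ran from -1.73 to 0.42, with Cpt1a at 0.42, Fabp1 at 0.12 and Ehhadh at -0.01. Of the droplet genes, Plin2, Plin5 and Pnpla2 had differences of 0.13 to 0.17 in the same livers, and Cidec and G0s2 had -0.35 and -0.84. Which of the droplet genes PPARα controls in these livers was not tested. Over all 10 droplet genes the range was -0.84, for G0s2, to 0.17. Whether the lists and the droplet genes differed was not tested.

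**Figure D5:**
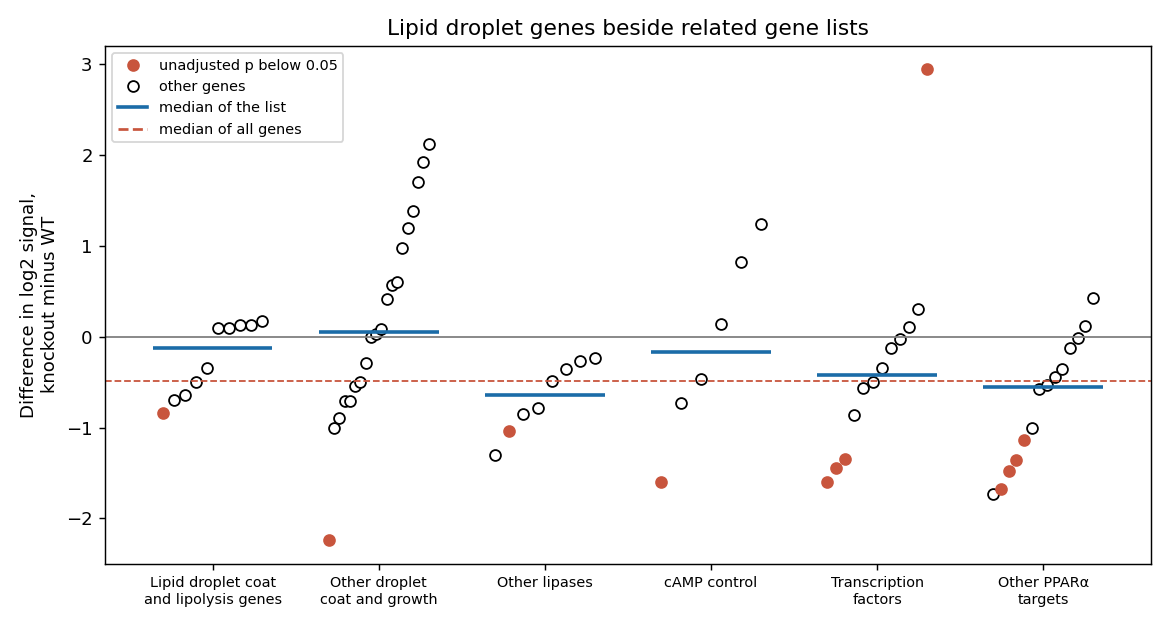
Each point is 1 gene, plotted by its knockout minus WT difference in log2 signal, for the 10 droplet genes and the 5 related lists. Filled points have an unadjusted p below 0.05, blue lines are list medians (-0.13 for the droplet genes and -0.64 to 0.06 for the lists) and the dashed line is the median of all genes.

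The counts depended on which WT livers were used. With WT replicates 1 and 2 left out, the shares of all genes at an unadjusted p below 0.05 were 4.06% lower and 2.72% higher. That fit has 1 WT liver, which is assumed to vary like the knockout livers, the only source of its spread, so its counts are a description. Among the droplet genes G0s2 (-1.35) was counted as lower and Abhd5 (0.89) as higher. For the lists only sizes are given here. Pdk4 differed by -0.88, Acot1 by -0.82, Acaa1b by -0.61 and Fgf21 by -1.46. Acsl3 differed by -0.54, Ces1f by -0.37 and Srebf1 by 0.56. Of the genes named from the lists, Aup1 differed by 0.09 against WT replicate 3 alone, Prkaca by 0.13, Rab18 by -0.16, Mlxipl by -0.29 and Sirt1 by -0.38, whereas Pde4b differed by -1.49 and Pparg by -1.05. Without WT replicate 3, 54.8% of all genes were lower and 13.4% higher. Plin3 and Hsd17b13 were then the droplet genes that were lower, 2 of 10, and both passed the adjusted test. The lists then had 7 lower and 8 higher of 20 coat genes, 6 lower of 8 lipase genes, 3 lower and 2 higher of 6 cAMP genes, 7 lower and 1 higher of 12 transcription factor genes and 6 lower of 14 PPARα targets. With any other single liver left out, the lower PPARα targets numbered 1 to 5, and 1 without WT replicate 2 or without knockout replicate 3. The lower lipase genes numbered 0 to 3 and the lower transcription factor genes 1 to 3. A share of 2 in 10 is below the 62.2% of all genes that passed it.

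Markers of other liver cells also differed between livers. The summed signal of 8 stellate cell markers was 89.8 to 153 times the array's 75th percentile in WT and 69.2 to 81.5 in the knockout, with 6 of 8 well above background on all arrays. For 8 Kupffer cell and macrophage markers, 7 of which had a probe, it was 77.4 to 182 in WT and 81.2 to 99.1 in the knockout. For 8 sinusoidal endothelial markers it was 119 to 166 and 105 to 132. Skeletal muscle markers summed to 1.59 to 3.35 in WT and 1.93 to 5.98 in the knockout, and Ckm, Mylpf and Actn3 were not well above background on any array. The brightest of these markers in WT was Pvalb, at 0.26 to 1.61 in WT and 0.49 to 0.93 in the knockout. Acta1 was at -3.93 to -2.67 in WT and at -2.45, -0.15 and 0.53 in the knockout. Tnnt3 was at -3.89 to -3.19 in WT and at -3.47, -2.07 and -0.01 in the knockout. Both were well above background on 1 WT array and 2 knockout arrays. WT replicates 1 and 2 had the highest stellate, Kupffer cell and endothelial sums. Such a sum is carried by its brightest genes, as by Dcn among stellate markers (7.12 and 6.88 in WT replicates 1 and 2), and single markers disagreed. The endothelial marker Kdr was at 2.14 and 1.92 in WT replicates 1 and 2, at 4.23 in WT replicate 3 and at 4.22 to 5.52 in the knockout. Pecam1, Des and Reln were also lowest in WT replicates 1 and 2, and Marco was highest in a knockout liver. The part of these cells in the values of the droplet genes was not tested.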

How the data were processed

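RNA of 3 WT and 3 Gα12 knockout livers was labelled with Cy3 and hybridised to 1-colour Agilent arrays, with groups and replicate numbers from the sample titles. The submitters' processing notes name Agilent Feature Extraction 10.7.3.1 as the scanning software, as the file headers do. In the deposited scanner files the values are linear intensity, background-subtracted by that software, with raw spot and background medians. The deposited series matrix holds log2 values, and comparison with the scanner files showed the log2 processed intensity plus a constant per array. Its column medians were 4.41, 4.17 and 4.70 in WT and 4.32, 4.44 and 4.52 in the knockout. Its direction and the lack of centring per probe follow from that comparison, and how the constants were chosen is not given in the sources used here.

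From the processed intensity, log2 minus the 75th percentile of each array's non-control spots was taken. Control and outlier-marked spots were left out and the spots of a probe averaged, and 55324 of 55681 probes had a value on all arrays. The fit used the 23132 probes that were well above background on 3 or more of the 6 arrays. None of the non-control spots was saturated. Symbols came from RefSeq accessions of GRCm38.p6 (26762 probes matched), while the array was designed on an older build. A gene stands for its brightest kept probe.

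Knockout minus WT was fitted to all kept probes with limma 3.58.1 in R 4.3.3 (lmFit, eBayes, two-sided), with Benjamini-Hochberg adjustment over all kept probes and a threshold of 0.05. The fit was checked on simulated data in which all arrays had the spread of the knockout livers. That check does not cover the division among the WT livers. The Cidec probe that was not kept and Gna12 have values from the same fit over all probes. The 5 pairs of genes were compared with an exact permutation test. The labels name 3 mice per group and no pairing, so arrays were taken as animals. The text names all 10 droplet genes by every probe, Gna12, and from each of the 5 lists up to 4 genes with the smallest unadjusted p. Ppara, Cpt1a, Ehhadh, Plin1, Hsd17b11, Gapdh and the marker genes were added to these after values were seen. The droplet genes and lists were chosen with earlier results of these data known, and 1 list gene is not reported here. The normexp alternative used median signals in place of mean signals, which the files used here do not hold.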

Additional observations from a re-analysis of the deposited data

How the results depend on the processing

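Of the 10 genes, G0s2 and Plin4 had the same sign under all 18 alternatives. The count of droplet genes lower by the unadjusted p (1, G0s2) became 0 with quantile normalization and with either other scaling. It also became 0 with outlier-marked spots kept and with the replicate block (G0s2 at -0.84, limma adjusted p = 0.293). With single livers left out it ran from 0 to 2. It became 2 with the mean over probes, through G0s2 and Hsd17b13 (-0.71). The Hsd17b13 mean holds the dimmer probe, which passed the filter through the WT arrays alone, so it is not read as a change. The count higher (0) became 1 with quantile normalization, with the 75th percentile over detected probes, with the mean over probes and without WT replicates 1 and 2. The count past the adjusted test (0) ran from 0 to 2 with single livers left out, 2 without WT replicate 3, and was 0 otherwise. The median of the droplet genes relative to all genes (0.37) became -0.05 without the filter on dim probes and -0.10 without WT replicates 1 and 2.

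Some single values changed sign. With WT replicates 1 and 2 left out, Plin2 was at -0.23, Plin3 at 0.15, Cideb at -0.23 and -0.37 by its probes, Mgll at 0.08, Pde3b at 0.01, Prkar2a at -0.47 and Bscl2 at -0.12. With single livers left out, Abhd5 ran from -0.31 to 0.36, Pnpla2 from -0.14 to 0.27, Plin5 from -0.05 to 0.30, Cideb from -0.06 to 0.26, Abhd5 minus Pnpla2 from -0.17 to 0.09 and Plin5 minus Plin2 from -0.41 to 0.19. Cidec was at 0.13 with the 75th percentile over detected probes, and Plin5 minus Plin2 at 0.01 after normexp. The mean over probes gave 1.35 for Abhd5 minus Pnpla2. The causes were not tested. Same-numbered livers deviated from their group means with correlations of -0.13, 0.01 and -0.04. These values cannot decide whether the livers were paired, because the WT deviations also hold the division of WT replicates 1 and 2 from WT replicate 3. Arrays give no depth, and 3 livers per group limit all values.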

Other observations

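In the RefSeq gene table Plin4 and Plin5 neighbour each other, as do Hsd17b13 and Hsd17b11, a droplet-bound dehydrogenase gene of the same family. Plin4 differed by -0.64 (SE 0.392) and Plin5 by 0.13 (SE 0.347), and knockout replicate 3 was the highest knockout liver for Plin4 and the lowest for Plin5. Hsd17b13 differed by -0.50 (SE 0.345) and Hsd17b11 by 0.00 (SE 0.398). These differences between neighbours were not tested.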
